A study of Mus musculus with 44 samples.

Results

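The genes described here are 7 genes of bile duct secretion, Cftr, Sctr, Aqp1, Slc4a2, Muc1, Ggt1 and Dmbt1, out of 21887 protein-coding mouse genes. They were taken by name as a fixed list, drawn up when earlier results of these data were known. Cholangiocytes, the epithelial cells that line bile ducts, turn the bile made by hepatocytes into a watery, bicarbonate-rich fluid. Secretin binds its receptor Sctr on these cells and raises cyclic AMP, the chloride channel Cftr opens, and the anion exchanger Slc4a2 (AE2) trades chloride for bicarbonate while water follows through aquaporins such as Aqp1. Muc1 is a membrane mucin of the luminal surface, Ggt1 is gamma-glutamyltransferase, which splits glutathione conjugates in the lumen, and Dmbt1 is a secreted scavenger-receptor glycoprotein of mucosal surfaces.

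Peak lists of 44 libraries were used, 11 for each of 4 histone marks, made by tethering the Tn5 transposase to antibody-bound chromatin. H3K4me3 lies at promoters in use or poised for use. H3K27ac is found where promoters or enhancers are active, H3K4me1 at enhancers of any state, and H3K27me3 where Polycomb holds genes silent. Every mouse was of the Rosa26-LSL-Cas9-EGFP strain (genotype labelled wild type) and had received AAV8-TBG-Cre by the retro-orbital route at 5e11 genome copies, so that Cre under the hepatocyte promoter TBG switches on Cas9 and EGFP in hepatocytes. Normal hepatocytes (Hep, 2 libraries per mark) stayed on normal diet and were isolated on a Percoll gradient. The remaining cells came by flow sorting from mice fed 0.1% DDC, a porphyrinogenic diet that injures bile ducts, for 8 to 9 weeks from 1 week after the virus. EGFP-positive cells were divided into early (CD24-, n = 2), intermediate (CD24+ EPCAM-, n = 2) and late (CD24+ EPCAM+, n = 3), and biliary epithelial cells (BEC, n = 2) were EGFP- EPCAM+. In any comparison with Hep, the stage cannot be told apart from the diet or the way of isolation. The labels give no ages and do not say whether replicates are separate animals, so the p-values measure the spread between these libraries, which may be technical.

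The unit throughout is the number of base pairs (bp) covered by listed peaks, either within 2500 bp of the promoter or over the gene and 50 kb on each side (the locus). Per library there were 19356 to 33762 H3K4me3 peaks, 23511 to 51807 H3K27ac peaks, 12785 to 77991 H3K4me1 peaks and 2343 to 16597 H3K27me3 peaks. Read depth is unknown. Covered bp measures how much was called as a peak, not signal height. Each library pools many cells, so a wider mark and a larger share of cells with the mark cannot be told apart. Late 1 had a shortest peak under 100 bp for all 4 marks. Over 20 housekeeping promoters, H3K4me3 summed to 22475 to 22952 bp in Hep, 15574 to 19534 bp in early, 10112 to 16393 bp in intermediate, 5114 to 16451 bp in late and 21108 to 21937 bp in BEC libraries, so the stages differed in how widely promoters in general were called. The cell labels were borne out by markers in part: 10 of 10 hepatocyte marker promoters carried H3K4me3 in Hep and 5 of 10 in BEC, and 5 to 6 of 10 biliary marker promoters carried it in Hep and 9 to 10 in BEC. Of 12 endothelial marker promoters, 0 to 1 carried H3K4me3 in Hep, 1 in early, 2 to 4 in intermediate, 2 in late and 2 to 3 in BEC libraries. Of 12 stellate and fibroblast ones, 1 did in Hep and early, 3 to 4 in intermediate, and 2 to 3 in late and BEC libraries. Macrophage markers had it at 0 to 1 of 11 in every stage, and neutrophil markers at 1 of 10 in an intermediate library (38 bp) and at 0 in all others. Of 26 developmental genes known as Polycomb targets, 0 to 1 carried H3K4me3 in Hep and early, 6 to 8 in intermediate, 5 to 7 in late and 3 to 4 in BEC libraries. The part of these lists in the results was not tested.

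Promoter sequences are shown for 3 members with a single annotated start that differ in H3K4me3: Cftr gained it, Muc1 had it beside the start in every stage and over the start in BEC, and Aqp1 had none. Of the 7 members, 5 had an entry in the RefSeq promoter table, whose assembly GRCm38.p6 corresponds to mm10. Each is the 250 bases before the start, plus strand, 5′ to 3′, with matches to the motifs listed below in capitals.
Cftr, chr6:18170437-18170686: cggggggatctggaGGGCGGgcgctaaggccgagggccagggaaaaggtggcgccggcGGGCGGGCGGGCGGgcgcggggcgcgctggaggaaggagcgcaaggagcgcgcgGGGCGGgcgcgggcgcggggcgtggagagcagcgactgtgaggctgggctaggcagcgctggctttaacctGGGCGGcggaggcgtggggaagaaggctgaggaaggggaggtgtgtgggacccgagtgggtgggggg
Muc1, chr3:89228806-89229055: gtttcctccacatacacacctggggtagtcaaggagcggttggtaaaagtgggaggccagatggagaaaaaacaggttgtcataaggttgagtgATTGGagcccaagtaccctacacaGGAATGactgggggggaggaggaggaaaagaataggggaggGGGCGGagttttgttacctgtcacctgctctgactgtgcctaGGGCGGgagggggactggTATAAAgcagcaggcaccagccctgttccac
Aqp1, chr6:55336049-55336298: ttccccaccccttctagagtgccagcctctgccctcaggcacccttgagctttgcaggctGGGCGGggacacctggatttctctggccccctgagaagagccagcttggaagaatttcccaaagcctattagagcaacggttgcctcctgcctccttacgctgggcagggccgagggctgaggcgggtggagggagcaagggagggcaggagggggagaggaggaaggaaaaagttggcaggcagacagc
The Cftr window has 76.4% G and C and 30 CpG dinucleotides, a ratio of observed to expected CpG of 1.06, which is above 95.7% of the 21263 promoter entries. Muc1 has 54.8% G and C and 3 CpG, with a ratio of 0.176, above 20.6% of entries, and Aqp1 has 62.0% and 5 CpG, with a ratio of 0.212, above 24.5%. Cftr is thus a CpG-rich promoter, while Muc1 and Aqp1 are CpG-poor. Both Slc4a2 starts were CpG-rich (ratios of 0.936 and 0.684), and the 4 annotated Ggt1 starts had ratios of 0.128 to 0.435.

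The motifs searched, on both strands, were the GC box GGGCGG, the CCAAT box CCAAT, the TATA box TATAAA, a piece of the HNF1 site GTTAAT, the HNF4 core CAAAGTC, a FOXA site TGTTTAC, a TEAD site CATTCC, an AP-1 site TGANTCA, a piece of the cyclic AMP response element TGACGT and a SOX site ACAATG. Cftr holds 6 GC boxes, 3 of them overlapping in 1 run, and no match to the other 9 motifs. The GC box is found in 42.6% of all windows of this length. Muc1 holds 2 GC boxes, a CCAAT box, a TEAD match (11.7% of all windows) and a TATA box that begins 31 bases before the start. The TATA box is found in 11.6% of all windows. Aqp1 holds 1 GC box only. HNF1, FOXA, AP-1 and SOX matches were in none of the windows of the 5 members, against 5.86, 2.62, 6.13 and 9.35% of all windows. The cyclic AMP response piece lay in the window of 1 of the 4 Ggt1 starts (75571560), as overlapping matches on both strands, and is found in 7.37% of all windows. That window also held a GC box. The start used for the Ggt1 values is another (75568662), whose window held 1 GC box and 1 CCAAT box. The window of the start 75573495 held an HNF4 core (3.65% of all windows) and a TATA box on the other strand. That of the start 75564132 held 2 CCAAT matches. These matches are descriptions of the letters, not of binding.

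The promoters of the chloride channel and the secretin receptor gained H3K4me3. Neither had a peak in Hep or early cells, and both carried the mark in every intermediate, late and BEC library. At Cftr (chromosome 6, 18170687 to 18322770, mm10, plus strand) the covered length was 343 and 439 bp in the intermediate libraries, 246, 1087 and 824 bp in the late ones, and 1349 and 1305 bp in BEC. All 7 later libraries lay above all 4 Hep and early libraries, and both BEC libraries lay above every other.

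At Sctr (chromosome 1, 120006879 to 120063539, strand not given in the table used) the values were 378 and 696 bp in intermediate, 158, 777 and 641 bp in late, and 1707 and 1484 bp in BEC libraries. The stages split in the same way as at Cftr. The Sctr promoter was placed at the gene end with more H3K4me3 over all libraries, so these values also chose the position. The other gene end had no H3K4me3 in any library. The developmental Polycomb targets given above also went from 0 to 1 promoters with H3K4me3 in Hep and early to 5 to 8 of 26 in intermediate and late libraries, and their part in these gains was not tested. Among late libraries both genes were lowest in late 1, the library with short peaks.

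In the limma fit over all 11 libraries, Cftr was higher in late than in Hep cells by 2.86 ± 0.51 (SE) and Sctr by 2.46 ± 0.53, on the log2 scale of covered bp plus 100. The adjusted p were 0.00365 and 0.0106. Since Hep had no peak, these sizes depend on the added 100 bp and no fold is given. Cftr and Sctr were 2 of the 5 members tested, where 3.23% of the 13654 promoters tested were higher and 3.05% lower. Aqp1 and Dmbt1 had no peak in any library and were not tested. Cftr, Sctr and Ggt1 passed the filter of a peak in 2 or more libraries only through the later stages. Against early cells the limma adjusted p for late cells were 0.00816 for Cftr and 0.0180 for Sctr, 2 of 5 members where 1.39% of promoters were higher and 1.51% lower. Leaving out early 1 or early 2 ended both late-minus-early calls, and leaving out late 2 or late 3 ended that of Sctr. Sctr lost its call against Hep without Hep 1, without Hep 2 or without late 3, while Cftr kept its call with each of the 11 libraries left out in turn. With no filter on low values neither promoter passed in late cells (adjusted p of 0.0712 and 0.135 against Hep), and with a window of 1000 bp Cftr did not.

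The step from early to intermediate cells is where both promoters first had peaks. It did not pass in limma (adjusted p = 0.0862 for Cftr and 0.0659 for Sctr, with 0.125% of promoters higher and 0.198% lower). Both had an unadjusted p under 0.05, 2 of 5 members, for which those shares, at an adjusted p under 0.05, are no background. Without the 2 short-peak H3K4me3 libraries (intermediate 1 and late 1), with quantile normalization, or with a pseudocount of 10 bp, both passed. From intermediate to late cells no member passed in any of the 4 fits by limma, and none had an unadjusted p under 0.05. No feature of the whole tables passed either (0% higher and 0% lower), while those with an unadjusted p under 0.05 numbered 206 for promoter H3K4me3, 662 for promoter H3K27ac, 1428 for locus H3K27ac and 58 for locus H3K4me1. Between Hep and early cells no member passed for H3K4me3 and none had an unadjusted p under 0.05, where 0.374% of promoters were higher and 0.308% lower.

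The chloride channel, the secretin receptor and the luminal enzyme Ggt1 all carried more H3K4me3 in BEC than in Hep cells. In limma, H3K4me3 was higher at Sctr (4.08 ± 0.58, adjusted p = 0.000438), Cftr (3.83 ± 0.56, adjusted p = 0.000501) and Ggt1 (2.21 ± 0.57, adjusted p = 0.0161). That is 3 of 5 members, where 9.08% of promoters were higher and 3.13% lower. The Cftr and Sctr calls held under all 20 alternatives tried, no filter on low values and a window of 1000 bp among them. The scale of the libraries differed, since the median of all promoters shifted by 0.13 between these stages and fell by 0.66 from Hep to late cells. With quantile normalization, which removes those shifts, the rise from Hep to BEC was 3.19 for Sctr, 2.92 for Cftr and 0.81 for Ggt1, and Ggt1 no longer passed (adjusted p = 0.124). With no filter on low values Ggt1 did not pass either (adjusted p = 0.135).

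**Figure D1:**
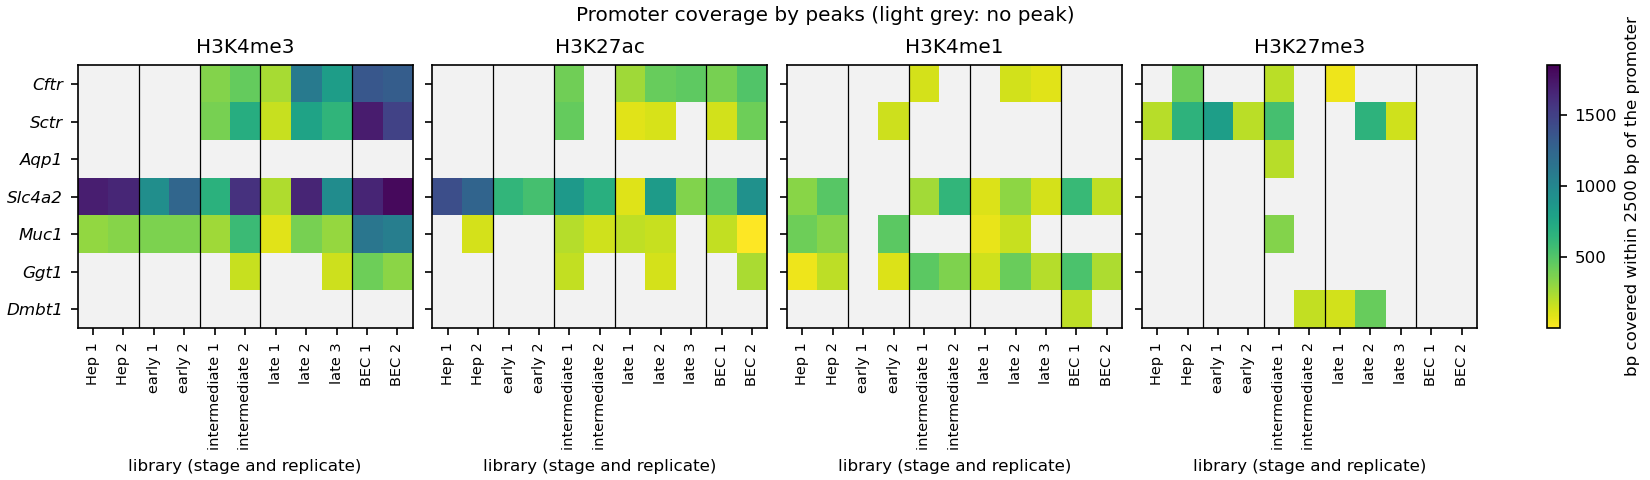
Covered bp within 2500 bp of the promoter for each of the 7 genes (rows) in each of the 11 libraries (columns), 1 panel per mark; the colour scale is in bp and light grey means no peak. Cftr and Sctr have no H3K4me3 in the 4 Hep and early libraries and have it in all 7 later ones, Slc4a2 and Muc1 have it in all 11, and Aqp1 and Dmbt1 in none.

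Of all 21887 protein-coding promoters, 290 (1.33%) had the H3K4me3 pattern of Cftr and Sctr, with no peak in 4 Hep and early libraries and a peak in all 7 later ones. The Sctr promoter also carried H3K27me3, the Polycomb mark. It covered 200 and 654 bp in Hep, 810 and 196 bp in early, 544 and 0 bp in intermediate, 0, 654 and 137 bp in late, and 0 and 0 bp in BEC libraries. The mark was thus listed in all 4 Hep and early libraries, in 3 of 5 intermediate and late libraries and in neither BEC library. The main region (chromosome 1, 120006830 to 120007697) overlaps the one that carried H3K4me3 (120006814 to 120007923). The late 3 peak of H3K27me3 lay outside that region. The marks come from separate libraries, so whether 1 cell carried both was not tested.

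H3K27me3 in both Hep and both early libraries and in neither BEC library was found at 350 promoters (1.60%), and together with the H3K4me3 pattern at 59 (0.270%), of which Sctr is 1. No test was run on H3K27me3, and BEC 2 had the shortest list of that mark, 2343 peaks, so the absence of a listed peak there is no evidence of absence of the mark. At the Cftr promoter H3K27me3 was listed in Hep 2 (417 bp), intermediate 1 (189 bp) and late 1 (51 bp) only. Dmbt1 had 170 bp in intermediate 2, and 124 and 431 bp in late 1 and late 2. Muc1 (346 bp) and Aqp1 (198 bp) had it in intermediate 1 only, and Slc4a2 and Ggt1 in no library.

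**Figure D2:**
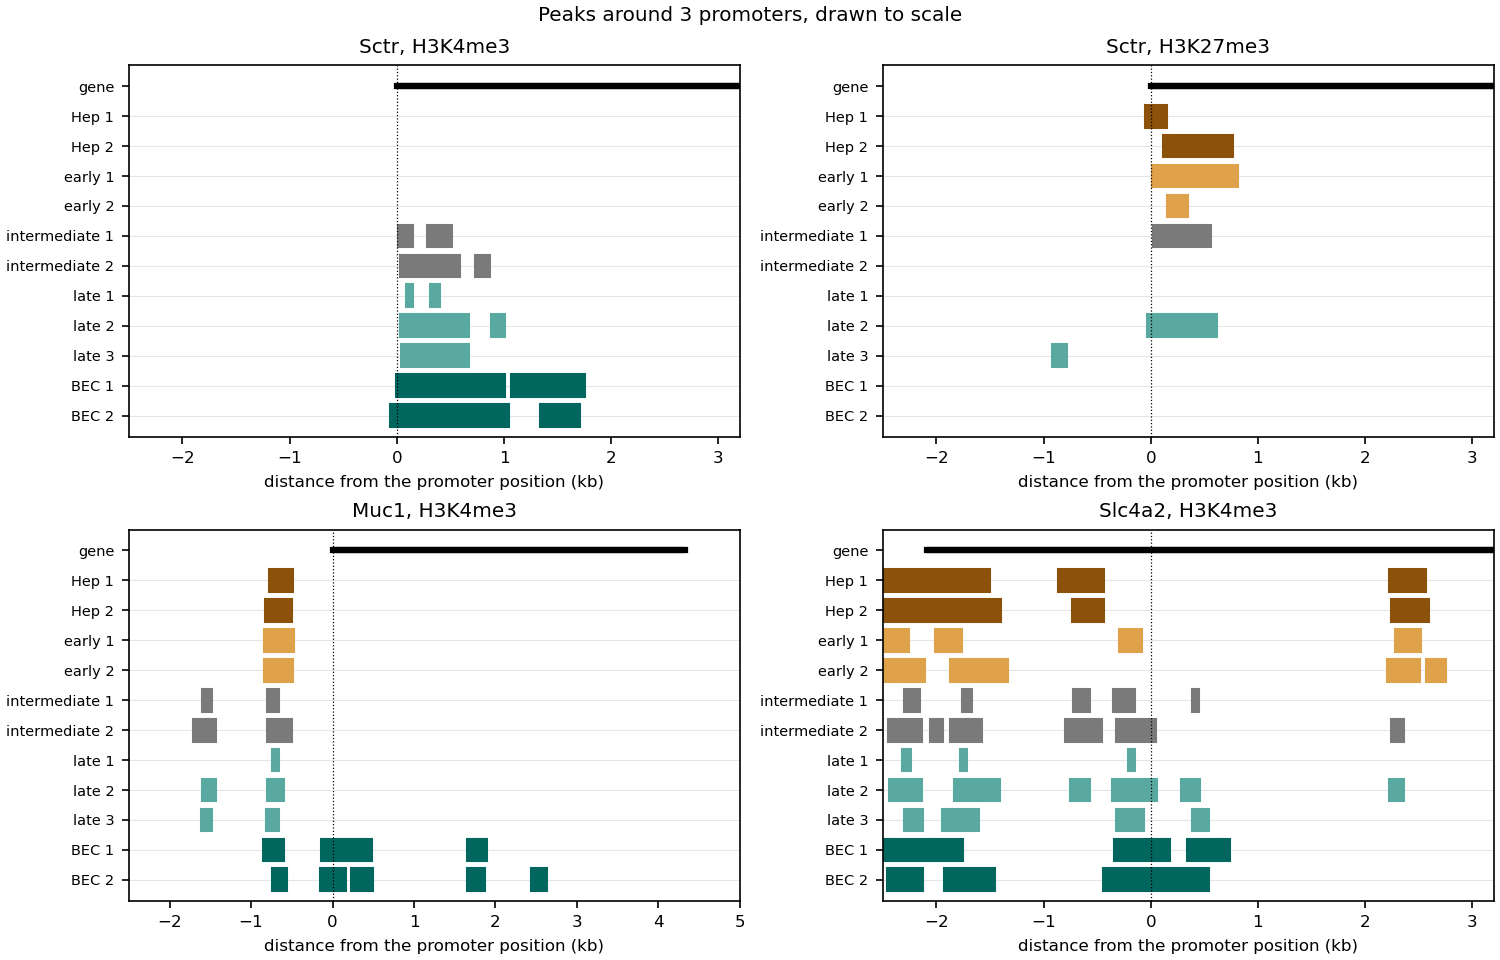
Listed peaks (boxes, to scale) in each library against distance in kb from the promoter position (dotted line), coloured by stage, with the gene as a black bar; panels show Sctr H3K4me3, Sctr H3K27me3, Muc1 H3K4me3 and Slc4a2 H3K4me3. H3K4me3 and H3K27me3 were listed over the same stretch of Sctr, H3K27me3 alone in Hep and early, both in some intermediate and late and H3K4me3 alone in BEC libraries, Muc1 has a peak over its start in the 2 BEC libraries only, and the Slc4a2 region 2.48 kb inside the gene is absent from both BEC libraries.

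H3K27ac followed at Cftr with more scatter. Its promoter had none in Hep or early cells, 399 and 0 bp in intermediate, 265, 429 and 458 bp in late, and 377 and 506 bp in BEC libraries. Late and BEC libraries all lay above Hep and early ones, and 1 of the 2 intermediate libraries had no peak. In limma it was higher in late than in Hep cells by 2.25 ± 0.565 (adjusted p = 0.0238), than in early cells by the same amount (adjusted p = 0.0436), and in BEC than in Hep cells by 2.43 ± 0.62 (adjusted p = 0.0218). Cftr was the 1 of 5 members called in each. Of 12724 promoters, 4.54% were higher and 19.5% lower in late than in Hep cells, 5.4% and 1.23% in late than in early cells, and 6.3% and 14.7% in BEC than in Hep cells. The late-minus-early call was lost with 9 of the 11 libraries left out in turn, the late call against Hep was lost without Hep 1, Hep 2 or late 3, and the BEC call without either Hep or either BEC library. Like its H3K4me3, this feature passed the filter only through the later stages, and with no filter on low values all 3 calls were lost (adjusted p = 0.0943, 0.203 and 0.102). A window of 1000 bp or equal numbers of peaks also ended all 3. The median promoter fell by 0.81 from Hep to late cells and by 0.70 from Hep to BEC. With quantile normalization Cftr was higher by 2.48 and 2.50 in these contrasts (limma adjusted p = 0.00746 and 0.00883). The late-minus-early call was lost with quantile normalization, with the replicate number as a block and without the short-peak library late 1.

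Sctr had H3K27ac of 438 and 0 bp in intermediate, 87, 114 and 0 bp in late, and 124 and 411 bp in BEC libraries, and none in Hep or early cells. Stages overlapped at 0, and no contrast passed (limma adjusted p = 0.109 for BEC against Hep). In the other contrasts of promoter H3K27ac no member passed. From early to intermediate cells Muc1 had an unadjusted p under 0.05. No member had an unadjusted p under 0.05 between Hep and early cells or between late cells and BEC. At an adjusted p under 0.05, 4.45% of promoters were higher and 0.267% lower in intermediate than in early cells. The shares were 0.88% and 24.5% between Hep and early cells, and 0.511% and 0.141% between late cells and BEC. H3K4me1 within 2500 bp was sparse at both, in 3 libraries at Cftr and in 1 at Sctr.

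No other gene's promoter lies within the Cftr locus, whose H3K27ac was higher in late and BEC cells than in Hep cells. Hep libraries had no peak of H3K4me3, H3K27ac or H3K4me1 anywhere in the gene or the 50 kb on each side. H3K27ac covered 193 and 172 bp in early, 1652 and 977 bp in intermediate, 985, 2697 and 1835 bp in late, and 2889 and 4103 bp in BEC libraries. Hep, early and the later stages did not overlap, and both BEC libraries lay above all others. In limma, on log2 of covered bp plus 1000, the locus was higher in late than in Hep cells by 1.46 ± 0.24 (adjusted p = 0.00107), in late than in early cells by 1.22 ± 0.24 (adjusted p = 0.0353) and in BEC than in Hep cells by 2.16 ± 0.26 (adjusted p = 0.000289). Cftr was the 1 of 6 members higher in each. Of 17877 loci, 4.25% were higher and 46.1% lower in late than in Hep cells, 1.34% and 1.14% in late than in early cells, and 7.32% and 30% in BEC than in Hep cells. No member passed from early to intermediate cells (0.00559% of loci higher, 0% lower), where Cftr, Sctr and Muc1 had an unadjusted p under 0.05, or from late cells to BEC (0.0112% higher, 0% lower), where Cftr had one. These shares are at an adjusted p under 0.05 and are no background for members at an unadjusted p. Both calls against Hep held under all 20 alternatives, while that against early cells was lost without early 1, early 2 or late 3, with no filter on low values (adjusted p = 0.117) and with the replicate number as a block (0.212).

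Single regions differed in the stages that listed them. Distances run along the chromosome from the start, negative before it. At -43.2 kb (18127010 to 18128052), -11.2 kb (18159182 to 18159736) and 100.6 kb inside the gene (18271045 to 18271588), H3K27ac was listed in 0 of 4 Hep and early libraries and in all 7 later ones. A region 178.8 kb from the start, past the end of the gene (18349282 to 18349789), was listed in both early libraries and in 2 of 2 intermediate, 2 of 3 late and 2 of 2 BEC libraries. It was the 1 H3K27ac region of the locus listed in early cells, and H3K4me1 was there in both early libraries as well. Regions at 10.7 and 149.9 kb were listed in the 2 BEC libraries only.

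**Figure D3:**
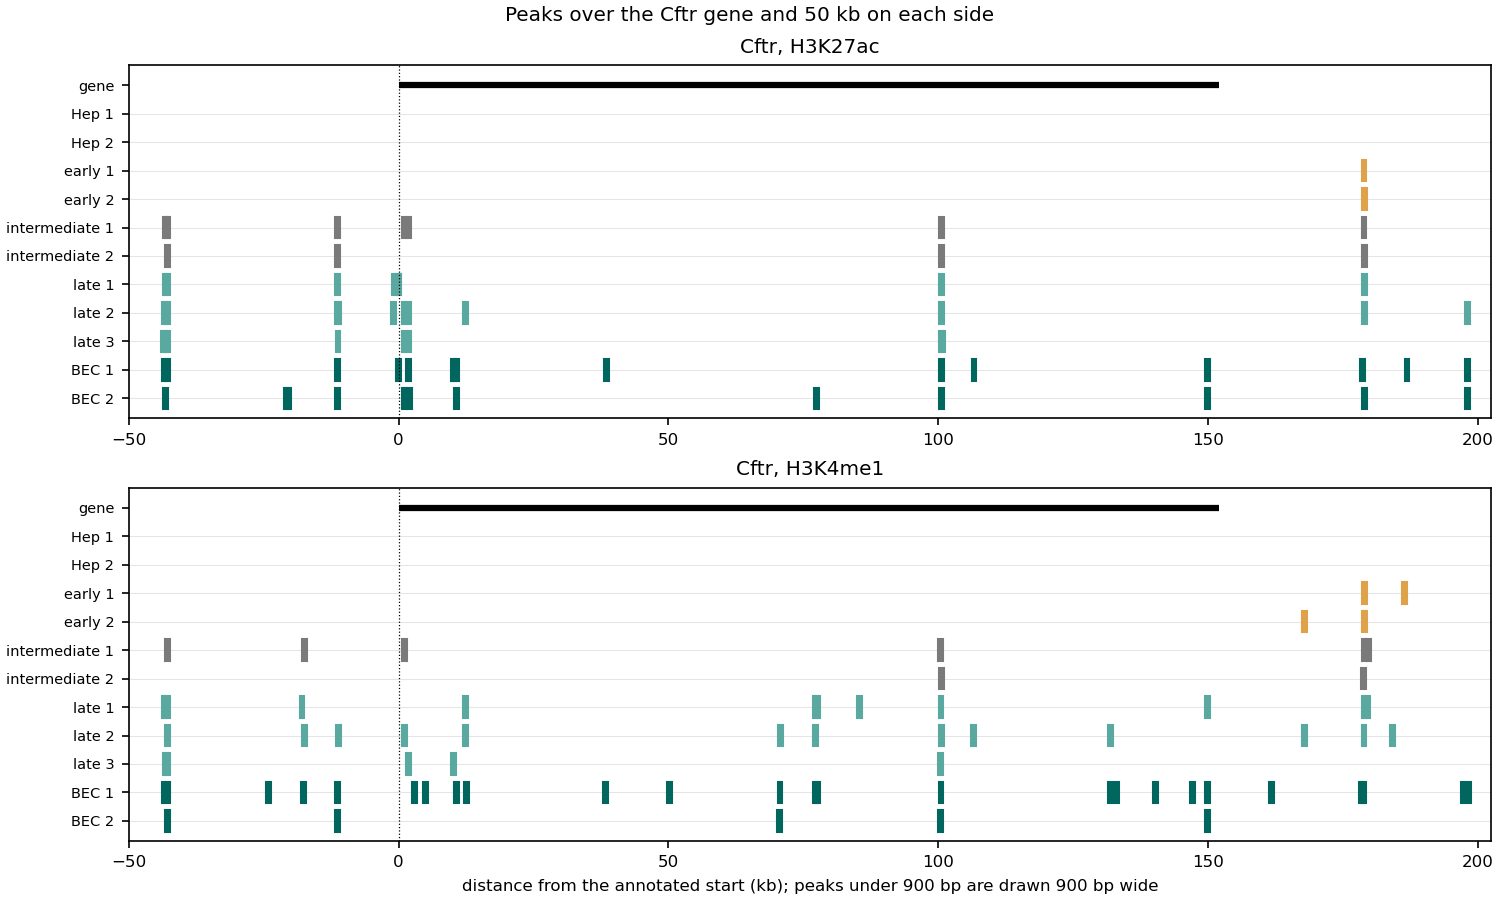
Listed H3K27ac (top) and H3K4me1 (bottom) peaks of each library over the Cftr gene (black bar) and 50 kb on each side, against distance in kb from the annotated start; peaks under 900 bp are drawn 900 bp wide so that they can be seen. Hep rows are empty, early rows hold peaks past the end of the gene only, and 3 distal H3K27ac regions are shared by all 7 later libraries.

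H3K4me1 of the Cftr locus was 0 bp in Hep, 526 and 676 bp in early, 771 and 930 bp in intermediate, 1335, 2555 and 460 bp in late, and 8043 and 824 bp in BEC libraries. The 2 BEC libraries differed by almost the whole range. Neither late (1.20 ± 0.59, adjusted p = 0.122) nor BEC (2.02 ± 0.64, adjusted p = 0.0824) cells passed against Hep in limma. None of the 7 members passed for H3K4me1 in any contrast, with up to 2 per contrast at an unadjusted p under 0.05. At an adjusted p under 0.05, 32.9% of 18926 loci were lower and 0.0211% higher in late than in Hep cells. In BEC against Hep cells 2.81% were lower and 0.0159% higher, and in the other 5 contrasts 0%.

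Around Sctr the picture is mixed. H3K27ac over the locus was 2588 and 2020 bp in Hep, 1565 and 1704 bp in early, 3859 and 2376 bp in intermediate, 1686, 3730 and 2633 bp in late, and 3385 and 4799 bp in BEC libraries, with BEC above Hep and early libraries, intermediate above early ones, and late libraries spread across most of the range. No contrast passed (BEC against Hep, limma 0.62 ± 0.27, adjusted p = 0.0871), but with quantile normalization, without late 1 or with a flank of 25 kb it passed. Tmem37, whose promoter region lies 66.5 kb along, carried H3K4me3 in all 11 libraries and adds to the sum. Regions 5.63 and 17.6 kb into the gene carried H3K27ac in none of the 4 Hep and early and in all 7 later libraries. A region at 30.7 kb (120037138 to 120037944) went the other way, with H3K27ac in 2 of 2 Hep, early and intermediate, 2 of 3 late and 0 of 2 BEC libraries.

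Distal H3K27ac regions, away from every promoter and listed in 2 or more libraries, numbered 47 over the 7 loci. Of these 24 (51.1%) were listed in no Hep or early library, 12 of them at Sctr and 6 at Cftr, against 38.4% of the 50564 such regions of the genome. Regions in no Hep or early and in all 7 later libraries made up 8 of 47 (17.0%), 3 at Cftr, 2 at Sctr and 1 each at Aqp1, Muc1 and Ggt1, against 5.09% of the genome. These shares are descriptions, since regions of 1 locus are not independent.

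Slc4a2 (chromosome 5, 24423761 to 24440947, plus strand) was marked in every stage. Its promoter carried H3K4me3 of 1698 and 1651 bp in Hep, 933 and 1238 bp in early, 666 and 1583 bp in intermediate, 220, 1659 and 951 bp in late, and 1662 and 1802 bp in BEC libraries. Hep and BEC libraries were high throughout, late 2 and intermediate 2 came close to them, and late 1 was lowest. No H3K4me3 contrast passed (BEC minus Hep 0.05 with a 95% interval of -1.38 to 1.47). The start of Cdk5, a kinase gene, lies 2257 bp away, so part of this window may belong to that gene.

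Single peaks within the window differed between stages, as a description with no test. A region at -1.94 kb from the chosen start was listed in all 11 libraries, and one over the start (24424983 to 24426579) in all but 1 early library. Another, 2.48 kb inside the gene (24428050 to 24428600), was listed in 2 of 2 Hep and 2 of 2 early, 1 of 2 intermediate, 1 of 3 late and 0 of 2 BEC libraries. The human gene is known to use alternative promoters inside the gene.

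H3K27ac at the Slc4a2 promoter was 1409 and 1251 bp in Hep, 632 and 549 bp in early, 848 and 680 bp in intermediate, 89, 834 and 350 bp in late, and 468 and 917 bp in BEC libraries. Both Hep libraries lay above all others. Late against Hep did not pass (limma, fell by 1.73 on the log2 scale, adjusted p = 0.0520). Over the locus H3K27ac was lower in early than in Hep cells by 1.06 ± 0.24 (adjusted p = 0.00928) and in late than in Hep cells by 0.69 ± 0.21 (adjusted p = 0.0196). Muc1 was lower in early cells as well, with 2125 and 2819 bp in Hep against 872 and 1144 bp (limma adjusted p = 0.0359). These are 2 of 6 members, where 37.8% of all loci were lower and 0.951% higher, and in late cells Slc4a2 was 1 of 6 where 46.1% were lower. Neither count exceeds the share over all loci, so these losses are not particular to the members. Leaving out Hep 2 or early 2 ended the early call of Slc4a2, leaving out Hep 1, Hep 2 or late 1 its late call, and leaving out any Hep or early library that of Muc1. The Slc4a2 locus holds other genes' promoters (Nos3, Abcb8, Atg9b, Fastk, Tmub1 and Agap3 with H3K27ac), and the median locus fell by 0.49 from Hep to early and by 0.48 from Hep to late cells. With quantile normalization the Slc4a2 change was -0.41 in early cells (adjusted p = 0.0321) and 0.00 in late cells, and with distal peaks only it was 0.11 in late cells. The Muc1 change was -0.20 (adjusted p = 0.405). Neither early call, of Slc4a2 or of Muc1, passed with distal peaks only.

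Muc1 (chromosome 3, 89229056 to 89233381, plus strand) differed between stages in where H3K4me3 was listed, which was not tested region by region. Promoter coverage was 299 and 337 bp in Hep, 369 and 363 bp in early, 268 and 590 bp in intermediate, 81, 383 and 295 bp in late, and 1125 and 1060 bp in BEC libraries. Both BEC libraries lay above the other 9. The difference did not pass against Hep (1.51 ± 0.55, limma adjusted p = 0.0987) or late cells (1.87 ± 0.50, adjusted p = 0.129), although both had an unadjusted p under 0.05. Against late cells it passed without the short-peak libraries and with quantile normalization. No member passed between late and BEC cells, where 0.637% of promoters were higher and 0.0513% lower. At an unadjusted p under 0.05 there were 3 of 5 members (Sctr, Muc1 and Ggt1). Those shares are at an adjusted p under 0.05 and are no background for that count.

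In all 11 libraries a region at -0.66 kb from the Muc1 start (89228199 to 89228587) carried the mark. A region over the start itself and its TATA box (89228908 to 89229559), which takes in the last part of the printed sequence, was listed in both BEC libraries, at 626 and 592 bp, and in none of the other 9. A further region, at -1.57 kb, was listed in both intermediate libraries and in 2 of 3 late libraries, and in no other. H3K27ac lay near the upstream region in 1 of 2 Hep, 2 of 2 intermediate, 2 of 3 late and 1 of 2 BEC libraries. Just past the end of the gene (89233486 to 89233836, 4.61 kb from the start) H3K27ac was listed in no Hep or early and in all 7 later libraries.

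Ggt1 (chromosome 10, 75561076 to 75586193, plus strand) has 4 annotated starts, and the one with most H3K4me3, at 75568662, was used. It had 0 and 154 bp in intermediate, 0, 0 and 140 bp in late, and 408 and 319 bp in BEC libraries, and none in Hep or early cells. Only the BEC libraries lay clear of the rest. The rise in BEC rested on the settings: it did not pass without Hep 1, without Hep 2 or without BEC 1, with no filter on low values, a pseudocount of 10 bp (adjusted p = 0.0624), quantile normalization or resized peaks (0.146), nor with promoters placed by the marks, which puts Ggt1 at its lower end near the promoter of Lrrc75b. An H3K4me1 region 0.39 kb past this start was listed in none of the 4 Hep and early libraries and in all 7 later ones. Elsewhere in the promoter window H3K4me1 was listed in Hep 1 (49 bp), Hep 2 (184 bp) and early 2 (101 bp). A distal region at -12.4 kb carried H3K27ac in no Hep or early and in all 7 later libraries.

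**Figure D4:**
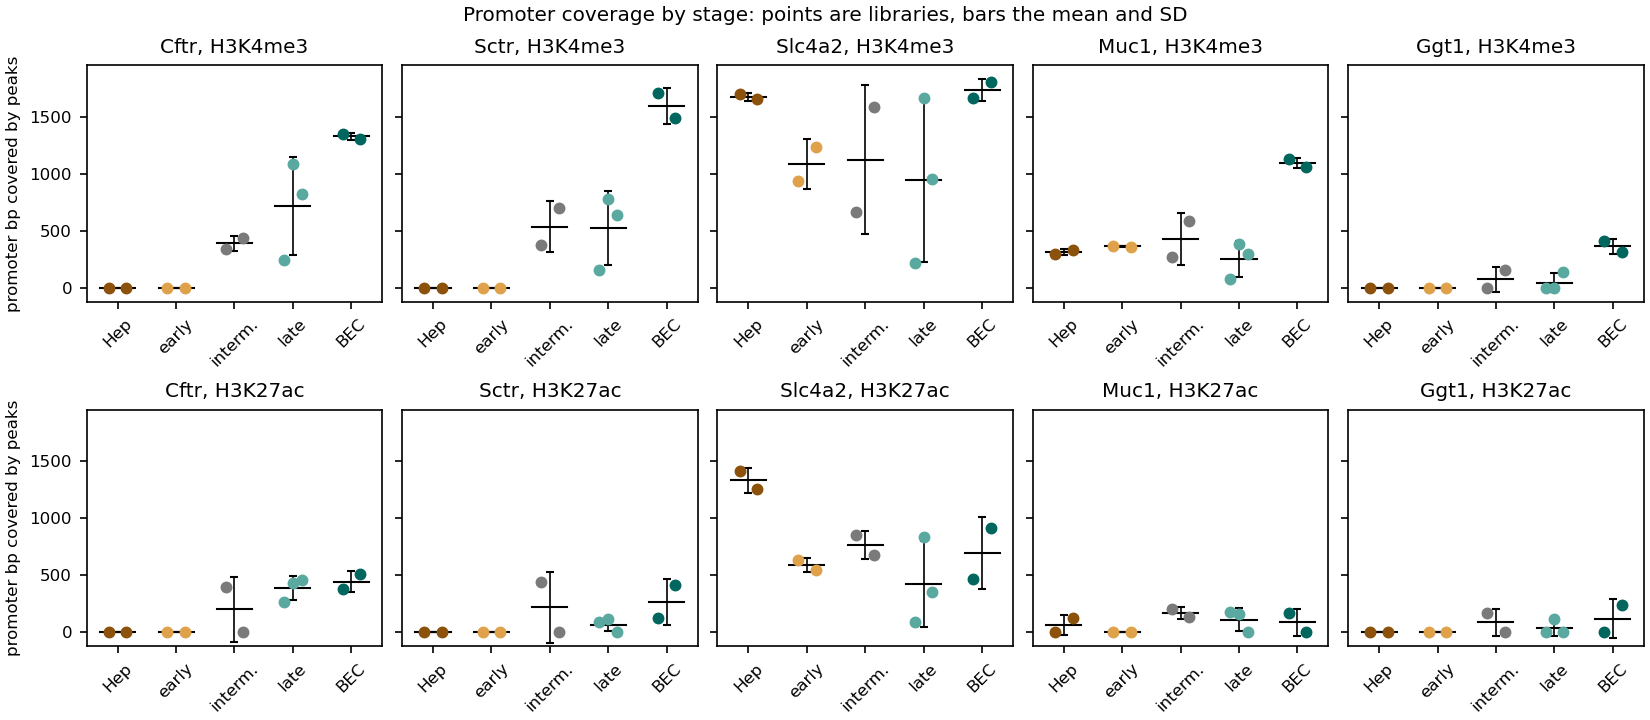
Covered bp within 2500 bp of the promoter by stage for the 5 genes with H3K4me3 in any library, H3K4me3 above and H3K27ac below; points are libraries, horizontal bars the mean and whiskers 1 SD (n = 2, or 3 for late). Cftr and Sctr rise from 0 in Hep and early cells to at least 1305 bp of H3K4me3 in BEC, Muc1 and Ggt1 stand out in BEC, and Slc4a2 spreads widely in intermediate and late cells.

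Aqp1 (chromosome 6, 55336299 to 55348555, plus strand) and Dmbt1 (chromosome 7, 131032057 to 131121628) had no promoter peak of H3K4me3 or H3K27ac in any of the 22 libraries of these marks, BEC included. Of all promoters, 32.3% had neither mark. Aqp1, which endothelial and red cells use as well as cholangiocytes, had H3K27ac at distal regions in every stage. A region at -11.8 kb was listed in all 11 libraries and one 21.5 kb after it in no Hep or early and in all 7 later libraries. A region just past the end of the gene (55350552 to 55351086) was listed in both early and both intermediate libraries and in no other. Locus H3K27ac of Aqp1 lay between 376 bp (late 1) and 1124 bp (early 2) and no contrast passed. Beside it, 1 to 3 of 12 endothelial and 1 to 2 of 8 red cell marker promoters carried H3K27ac in every stage. The promoters of the globin genes Hba-a1 and Hbb-bs had neither H3K4me3 nor H3K27ac in any stage.

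Dmbt1 had no H3K4me3 in its locus in any library and H3K27ac in Hep 2 only (122 bp). Its locus carried H3K27me3 in all 11 libraries, between 196 and 1338 bp, with a region at -23.0 kb in 9 of 11. Locus H3K4me1 was 1231 and 262 bp in BEC, 424 and 459 bp in Hep, and 0 to 182 bp in the other libraries.

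**Figure D5:**
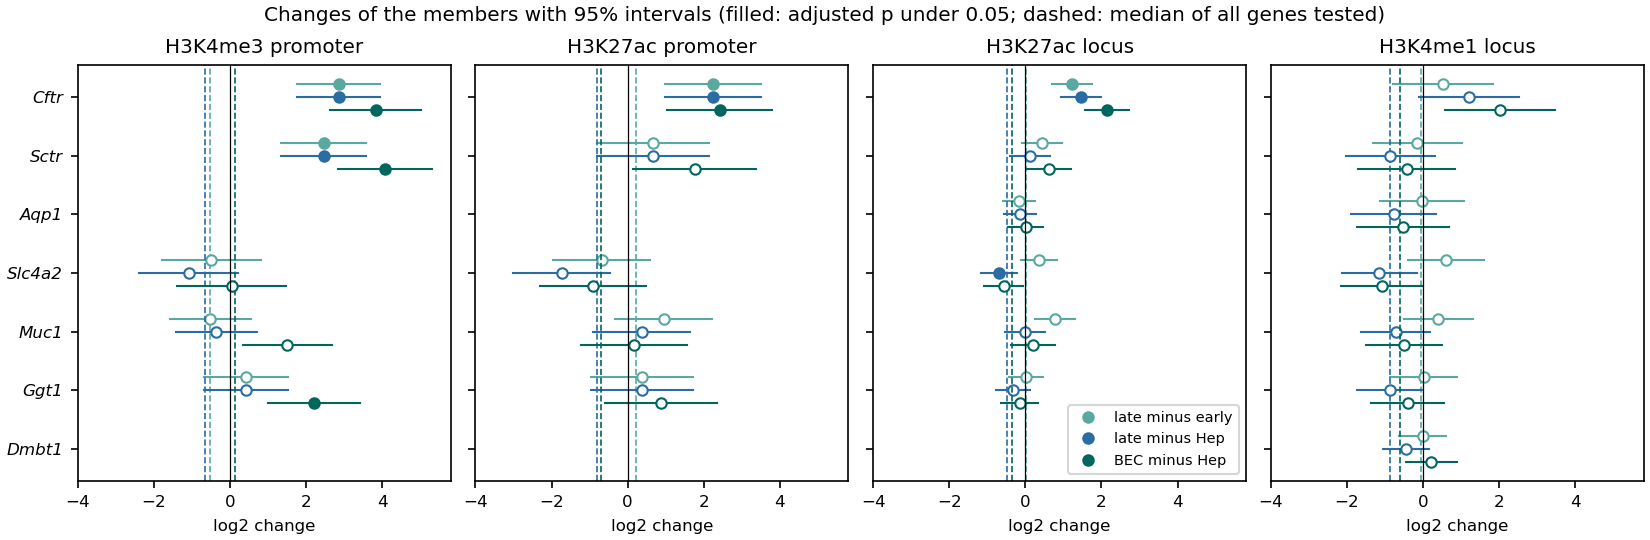
Log2 change and 95% interval of each gene in limma for late minus early, late minus Hep and BEC minus Hep cells, in the 4 fits; filled points have an adjusted p under 0.05, genes not tested have no point, and dashed lines mark the median of all genes tested. Cftr lies to the right of the medians in all 4 panels, Sctr in the 3 of H3K4me3 and H3K27ac, and Slc4a2 has the 1 filled point below 0.

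Other genes of duct secretion were read from 3 lists. Genes with peaks in the later stages alone entered the tests through those stages, so the counts over genes tested are descriptions and not support for a direction. Of 22 ion and water transport genes, 17 were tested for H3K4me3. In late against Hep cells 3 were higher (Slc4a3, Kcnn4 and Slc5a1), 1 was lower (Aqp8) and 13 did not pass, where 3.23% of all promoters were higher and 3.05% lower. The list median was -0.70 and that of all promoters -0.66. Kcnn4, a calcium-activated potassium channel, had no peak in Hep or early cells, 109 and 122 bp in intermediate, 212, 306 and 289 bp in late, and 1386 and 1691 bp in BEC libraries. It was higher in late than in early cells (limma adjusted p = 0.0209) and higher again in BEC than in late cells (2.15 ± 0.41, adjusted p = 0.0206). Slc4a3, an anion exchanger related to Slc4a2, had 251 to 746 bp in intermediate and late cells and 539 and 825 bp in BEC, from 0 in Hep and early cells. Aqp8, a water channel of hepatocytes, fell from 840 ± 50.2 bp in Hep to 41.0 ± 71.0 bp in late cells (n = 2 and 3, limma adjusted p = 0.00364) and to no peak in BEC.

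Of 16 receptor and signalling genes, 13 were tested for H3K4me3. In BEC against Hep cells 1 was higher (Vipr1) and 0 were lower, where 9.08% of all promoters were higher and 3.13% lower, so 1 of 13 is near the background. In late against Hep cells 0 were higher and 1 was lower, the vasopressin receptor Avpr1a, with 1547 and 1565 bp in Hep and 0, 530 and 275 bp in late libraries (limma adjusted p = 0.0288). Vipr1, a receptor for vasoactive intestinal peptide of the same receptor class as Sctr, went from no peak in Hep and early cells to 167 and 696 bp in intermediate, 68, 483 and 520 bp in late, and 991 and 1040 bp in BEC libraries (limma 3.48 ± 0.65, adjusted p = 0.00194). Its window is shared with the neighbouring gene Lyzl4, so the peaks could belong to either. For H3K27ac 10 were tested. In late against Hep cells 1 was higher and 1 lower, where 4.54% of all promoters were higher and 19.5% lower. Itpr3, the apical calcium release channel of cholangiocytes, was the higher one (350 ± 178 bp against no peak, limma adjusted p = 0.0189), and the nucleotide receptor P2ry2 the lower one (1210 and 1051 bp in Hep, 301, 553 and 470 bp in late, adjusted p = 0.0406). In BEC against Hep cells Itpr3 was again higher (limma adjusted p = 0.0181) and P2ry1 lower (adjusted p = 0.0198). That is 1 of 10 in each direction, where 6.3% of all promoters were higher and 14.7% lower. In both contrasts these H3K27ac counts are near the background.

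Of 22 mucin and luminal glycoprotein genes, 6 were tested for H3K4me3 and 10 for H3K27ac. In BEC against Hep cells 6 of the 10 were higher in H3K27ac, among them Tff2, Lgals3, Tff1, Muc20 and St14, 1 was lower (Pigr) and 3 did not pass, where 6.3% of all promoters were higher and 14.7% lower. The other 12 genes of the list were not tested, and of the 5 named as higher all but Tff1 had no peak in Hep, so they passed the filter through other stages. The trefoil peptide Tff2 went from no peak in Hep, early and intermediate cells to 51, 305 and 326 bp in late and 676 and 637 bp in BEC libraries (limma 2.92 ± 0.48, adjusted p = 0.00375). Tff1 and Tff2 are neighbours in the genome. Neither Muc20 nor Tff1 had a promoter peak of H3K4me3 in the BEC libraries. Pigr, the transporter of secretory immunoglobulin, fell in H3K4me3 from 994 ± 3.54 bp in Hep to no peak in late cells (limma adjusted p = 0.000772). In that contrast Cp was also lower (-2.44, adjusted p = 0.0294) and St14 higher (3.15, adjusted p = 0.00300), where 3.23% of all promoters were higher and 3.05% lower. In BEC against Hep cells St14 (3.82) and Lgals3 (2.81) were higher and Pigr (-2.70) lower, where 9.08% were higher and 3.13% lower. St14 and Lgals3 had no H3K4me3 peak in Hep.

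The genes whose H3K4me3 and H3K27ac promoter values (log2 of bp plus 100) most resembled those of a member were sought over 22 libraries, among up to 10980 genes. The libraries share their preparation and peak lengths, so these correlations are descriptions. Closest to Cftr were Dpysl4 (r = 0.983), Anxa3 (0.977) and Dennd2a (0.977), where the median gene had -0.037 and the upper 1% began at 0.883. Sctr itself correlated with Cftr at 0.904. Closest to Sctr were Hk2 (0.973), Lyzl4 and Vipr1 (0.959 each, from 1 shared window). Closest to Slc4a2 were Bsdc1 (0.950), Ppp2r5a (0.941) and Gprc5c (0.939), against a median of 0.638, and closest to Muc1 were Dvl2 (0.816), Gdpd1 (0.814) and Cenph (0.812), against a median of 0.365. Slc4a2 and Cftr correlated at -0.086. Ggt1, Aqp1 and Dmbt1 had too few libraries with peaks for this comparison.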

How the data were processed

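The authors deposited 1 list of filtered peaks per library, with positions in mm10 bases and a score per peak that no label or header defines; here the score ranked peaks for 1 alternative and had no other use. Bowtie2, Picard, deepTools and MACS2 appear, without versions or settings, in the submitters' processing notes. Of 1341191 peaks, 1210 on other contigs were dropped.

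Promoters were set at the RefSeq start (GRCm38.p6) or, with several starts, at the one with most H3K4me3 over all libraries. With no entry, as for Sctr and Dmbt1, the gene end with more marks over all libraries was used, without stage labels. At Sctr and Ggt1 the H3K4me3 that set the position lay in intermediate, late and BEC libraries only, so values then tested also chose it. Dmbt1 was placed by H3K4me1, listed at the chosen end in BEC 1 only (183 bp). Covered bp plus 100 (promoters) or 1000 (loci) were fitted on the log2 scale with limma 3.58.1 in R 4.3.3, in 1 fit per measure over 5 stages, for features with a peak in 2 or more libraries. P-values were adjusted by Benjamini-Hochberg over all features of each of 7 contrasts, at 0.05. A stage left with 1 library is assumed to vary like the others. H3K27me3 and promoter H3K4me1 were not tested.

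The 7 genes and all lists were chosen with earlier results of these data known. List genes named are up to 5 per direction that passed without overlap of libraries between stages. The 3 most similar genes are given for members with peaks in 4 or more libraries of both promoter marks. Alternatives changed the pseudocount, filter, normalization, peak width (500 bp), peak number, window, promoter placement, replicate block and libraries.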

Additional observations from a re-analysis of the deposited data

How the results depend on the processing

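Of 20 alternatives per result, all kept the BEC-minus-Hep calls of Cftr (log2 change 2.57 to 7.06) and Sctr (3.19 to 7.32) for H3K4me3, and those of Cftr for locus H3K27ac in late (1.06 to 4.17) and BEC (up to 5.15, and 2.10 with quantile normalization) against Hep. Locus H3K27ac of Slc4a2 in late against Hep cells turned from -0.69 to 0.12 with resized peaks and to 0.11 with distal peaks only. The causes of the changes listed here were not tested. Covered bp hold no read depth, and peak calling limits what a missing peak shows.

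For H3K4me3, members called from early to intermediate cells went from 0 to 2 with a pseudocount of 10 bp, quantile normalization, resized peaks, the replicate block or no short-peak libraries. Late minus early and late minus Hep each went from 2 to 0 with no filter and to 1 with a window of 1000 bp. BEC minus late went from 0 to 1 with quantile normalization or equal peak numbers, and to 2 with the replicate block or no short-peak libraries. Leaving out 1 library gave 0 to 2 for intermediate minus early, 0 to 2 for late minus early, 1 to 2 for late minus Hep and 2 to 4 for BEC minus Hep.

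For promoter H3K27ac, placement by the marks gave 2 in early minus Hep (main 0), late minus early, late minus Hep and BEC minus Hep (main 1 each). Late minus early fell to 0 with no filter, quantile normalization, equal peak numbers, a window of 1000 bp, the replicate block or no short-peak libraries. Late minus Hep fell to 0 with no filter, resized peaks, equal peak numbers, a window of 1000 bp or the replicate block, and BEC minus Hep with the first 4 of these. Leaving out 1 library gave 0 to 1 for intermediate minus early and late minus early, and 0 to 2 for late minus Hep and BEC minus Hep.

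For locus H3K27ac, early minus Hep (main 2) fell to 1 with no filter, quantile normalization, resized peaks, equal peak numbers, 25 kb flanks or the replicate block, and to 0 with distal peaks only. Intermediate minus early (main 0) became 1 with a pseudocount of 100 bp, 2 with quantile normalization and 3 with resized peaks. Late minus early (main 1) became 0 with no filter or the replicate block, 4 with quantile normalization or resized peaks and 2 with distal peaks only. Late minus Hep (main 2) became 1 with a pseudocount of 100 bp, no filter or no short-peak libraries. BEC minus late (main 0) became 1 with quantile normalization. BEC minus Hep (main 1) became 3 with quantile normalization, equal peak numbers, 25 kb flanks or no short-peak libraries, and 2 with resized peaks. Leaving out 1 library gave 0 to 2 for early minus Hep, 0 to 1 for late minus early, 1 to 2 for late minus Hep and 1 to 3 for BEC minus Hep.

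For locus H3K4me1 (main 0 throughout), 1 member was called with quantile normalization in late minus early, late minus Hep and BEC minus Hep, with 25 kb flanks in late minus Hep, and with a pseudocount of 100 bp or equal peak numbers in BEC minus Hep. Leaving out 1 library gave 0 to 3 for early minus Hep, 0 to 2 for late minus Hep and 0 to 1 for BEC minus Hep.

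The labels state no pairing of same-numbered libraries. Of 10 pairs of stages per measure, 1, 0, 1 and 3 had deviations correlated above 0.1 for promoter H3K4me3, promoter H3K27ac, locus H3K27ac and locus H3K4me1. Below -0.1 there were 0, 0, 1 and 3, and for locus H3K4me1 r ran from -0.51 to 0.35. Such correlations cannot decide whether libraries were paired, so the replicate block is given as an alternative only. Over all features, quantile normalization moved the split of higher to lower calls: for promoter H3K27ac in late minus Hep cells from 578 and 2481 to 711 and 532, in early minus Hep from 112 and 3116 to 122 and 29, and in BEC minus Hep from 802 and 1874 to 991 and 811; for locus H3K27ac in late minus Hep from 760 and 8237 to 3075 and 2952, in early minus Hep from 170 and 6765 to 1393 and 1115, and in BEC minus Hep from 1308 and 5359 to 3475 and 3417; and for H3K4me3 in BEC minus Hep from 1240 and 427 to 840 and 735 in BEC minus late from 87 and 7 to 122 and 103, in intermediate minus early from 17 and 27 to 213 and 173 and in late minus early from 190 and 206 to 430 and 309. It did so too for promoter H3K27ac in intermediate minus early (566 and 34 to 40 and 66), late minus early (687 and 156 to 279 and 352) and BEC minus late (65 and 18 to 107 and 80), for locus H3K27ac in intermediate minus early (1 and 0 to 831 and 684) and BEC minus late (2 and 0 to 456 and 373), and for locus H3K4me1 in late minus Hep (4 and 6233 to 1155 and 707) and BEC minus Hep (3 and 531 to 1535 and 1138).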
